A study of Mus musculus with 2 samples.

Results

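Monocytes were taken from the GFP+ library of mouse muscle after sciatic nerve crush as barcodes rich in Ly6c2, Chil3 and Plac8 transcripts. A barcode, the tag that marks 1 droplet, needed at least 5000 unique molecular identifiers (UMIs, counted RNA molecules), under 10% of them from mitochondrial genes, and at least 5 UMIs of Ly6c2, Chil3 and Plac8 together with at least 2 of these 3 genes seen. It also needed at least 3 UMIs of the myeloid adaptor genes Tyrobp and Fcer1g, at most 1 UMI of the resident macrophage genes Lyve1, Folr2, Cd163 and Fcna together, and at most 2 UMIs of Gpnmb. This gate held 485 of the 36400 barcodes and 5.55% (5.08 to 6.05%, exact Clopper-Pearson 95% interval) of the 8742 that passed the depth and mitochondrial limits. The members were thus chosen by their measured RNA, so the levels of these genes describe the choice and were not tested.

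The library came from tibialis anterior and gastrocnemius muscle of 2-month-old male S100GFPtg mice, labelled WT (wild type) apart from the transgene, harvested 7 days after sciatic nerve injury by crush and digested to single cells. S100GFPtg mice carry GFP under the promoter of S100b, a Schwann cell gene, and live cells were sorted on GFP before droplet capture. Both libraries, GFP+ and GFP-, share this genotype, injury, time and age. The series text describes a single mouse with nerve crush while the study's methods describe pooled mice, which leaves the count of animals uncertain. No uninjured muscle enters these comparisons. Values came from 1 library, so every interval below is a 95% interval for counting error only and no p-value was computed. The GFP- matrix was not used here. Of its 39531 barcodes, 372 (1.02% of the GFP+ barcodes) also occurred in the GFP+ library, among them 6 of the 485 monocytes.

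Classical monocytes are made in bone marrow, circulate with high surface Ly6C, and leave the blood through the chemokine receptor Ccr2. In injured muscle and nerve they mature into macrophages that clear debris, gaining complement C1q genes and scavenger receptors as they lose Ly6c2 and the lectin-like secreted protein gene Chil3. Macrophage gates of the same library served as comparisons, each requiring at most 1 UMI of the 3 monocyte genes together. The Lyve1/Folr2 gate held 3219 barcodes with resident-type genes, and the Gpnmb gate held 27 barcodes with at least 5 Gpnmb UMIs, a gene of lipid-loaded phagocytes. Without the limit on monocyte genes the Gpnmb gate held 120 barcodes. Median depths were close for monocytes (11214 UMIs) and Lyve1/Folr2 macrophages (11489), and higher for Gpnmb macrophages (18676).

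The upstream DNA of the gate genes is shown because these genes defined the gate together. Ly6c2 lies on chromosome 15 (75108161 to 75112066), Chil3 on chromosome 3 (106147554 to 106167564), Plac8 on chromosome 5 (100551589 to 100572253) and the monocyte marker Hp, for haptoglobin, on chromosome 8 (109575128 to 109579172), all in RefSeq for GRCm38.p6. AGGAAGT, a core that ETS factors such as the myeloid regulator PU.1 bind, was searched on both strands in the 250 bases before each start in the RefSeq promoter table. It occurred in 7.69% of all 32851 promoters, in both annotated Ly6c2 promoters and in the Chil3 promoter. The Ly6c2 windows overlap and share the printed site. Neither Plac8 promoter held it, nor did those of the gate gene Fcer1g, of Ccr2 and of the cytokine gene Il1b. Such a match describes letters and not a bound site. The bases outside the annotated gene are printed with the motif, or its reverse complement, in capitals, Ly6c2 as chr15:75112067-75112221 and Chil3 as chr3:106167565-106167814, both minus strand.
Ly6c2: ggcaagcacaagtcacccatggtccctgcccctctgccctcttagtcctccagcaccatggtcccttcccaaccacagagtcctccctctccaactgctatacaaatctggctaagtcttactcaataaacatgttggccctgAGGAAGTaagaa
Chil3: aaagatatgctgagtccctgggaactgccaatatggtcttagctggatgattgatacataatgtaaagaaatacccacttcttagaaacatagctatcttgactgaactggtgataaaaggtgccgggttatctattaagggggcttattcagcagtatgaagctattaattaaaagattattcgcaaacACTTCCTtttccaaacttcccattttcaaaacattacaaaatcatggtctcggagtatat
The transcripts that carry the counts have close copies. Over the last 500 bases, aligned Ly6c2 and Ly6c1 positions were 98.2% identical and those of Chil3 and Chil4 were 92.2% identical in GENCODE transcripts. Ly6c2 counts are therefore uncertain where a read fitted both genes. The files still set the pairs apart: endothelial barcodes held 1360.2 counts per 1000000 UMIs (CPM) of Ly6c1 and no Ly6c2 UMI, monocytes held 326 CPM of Ly6c2 and 41.5 CPM of Ly6c1, which was 452 CPM in 26 barcodes with mesenchymal genes and at most 7.35 CPM in the other subclusters, and Chil4 had no UMI in the monocytes, which allows up to 0.5 CPM.

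Members differed in which gate genes they carried. All 3 genes were seen in 206 members, Ly6c2 and Chil3 without Plac8 in 60, Ly6c2 and Plac8 without Chil3 in 82, and Chil3 and Plac8 without Ly6c2 in 137. Chil3 was the most abundant, with a median of 9 UMIs per member, followed by Plac8 with 6 and Ly6c2 with 2. Before thinning, a Ly6c2 UMI was seen in 71.8% of members, and a Plac8 UMI in 87.6%. Hp, which the gate did not use, had at least 1 UMI in 61.2% of members before thinning. Together the members held 50.5% of the Hp UMIs of all deep barcodes, against 5.26% of all their UMIs. For the gate genes Ly6c2 and Chil3 the shares were 79.2% and 55.7%, which describe the choice of members by these genes. The limits cut through a continuum: 13 members held exactly 5 UMIs of the 3 genes while 27 barcodes held 4 and met every other criterion, and Ccr2 stood at 407 CPM in the former and 472 CPM in the latter. In the same order Hp stood at 35.1 and 50.6 CPM, below its 249 CPM over all members. The complement gene C1qa stood at 885 and 472 CPM, above its level over all members. The limit on Lyve1-set genes removed 68 of 607 barcodes and that on Gpnmb removed 60.

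Every member carried at least 2 of the 3 gate genes by the rule itself. By other genes, 3 small sets stood apart, and a further one was low in Hp, Ccr2, Ly6c2 and Plac8. In 21 barcodes led by Ly6d and Siglech, Chil3 and Hp had no UMI, which allows up to 9.46 CPM, and these went against the label. Another 26 barcodes held the list of 20 mesenchymal genes at 30335 CPM in sum, against 195 to 306 CPM in the 7 other subclusters, and 18 of the 26 lay in the highest 10% of doublet scores. In 4 barcodes, each with at least 10 UMIs of these genes together, lay 98.2% of the S100a8, 99.9% of the S100a9 and all of the Retnlg UMIs, genes of neutrophils. All Retnlg UMIs lay in 3 of these barcodes. The fourth lay in a subcluster led by Syngr1 and Spp1, which held 21 S100a8 UMIs in all, S100a9 at 1.42 CPM and no Retnlg UMI. Left out together, these 3 sets left 434 members, and list counts that then changed against Lyve1/Folr2 macrophages are given with each list. Over all members the 18 neutrophil genes summed to 1271 CPM (197 CPM over the 434) against 95.1 CPM in Lyve1/Folr2 macrophages, and 4 of 4 tested, those at 50 CPM or more in either gate, were at least 2-fold higher (1 of 2 over the 434). The filter set the outcome for these 4, which reached 50 CPM only in the monocyte gate. Of all tested genes 11.5% were higher and 14.9% lower (11.3% and 15.9% over the 434). The mesenchymal genes summed to 2881 CPM (224 CPM over the 434) against 1245 CPM, with 7 of 9 tested higher and 0 lower (0 higher and 6 of 7 lower over the 434). The 18 Schwann genes summed to 47.8 CPM (10.8 CPM over the 434) against 50.1 CPM, and the 15 endothelial genes to 52.2 CPM (39.4 CPM over the 434) against 99.4 CPM. Of the other members, 39 barcodes led by Syngr1 and Spp1 held Hp at 49.8 CPM, Ccr2 at 151 CPM, Ly6c2 at 104 CPM and Plac8 at 54 CPM. Chil3 was not low in the same way, at 834 CPM and seen in 94.9% of these barcodes after thinning. Their lipid-associated list summed to 27131 CPM against 1794 to 8465 CPM in the other subclusters. These 39 barcodes, less the 1 counted with neutrophil genes, were kept among the 434. Without them 446 members remained, with 431 genes at least 2-fold higher than in Lyve1/Folr2 macrophages in place of 422 and 556 lower in place of 547.

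**Figure D1:**
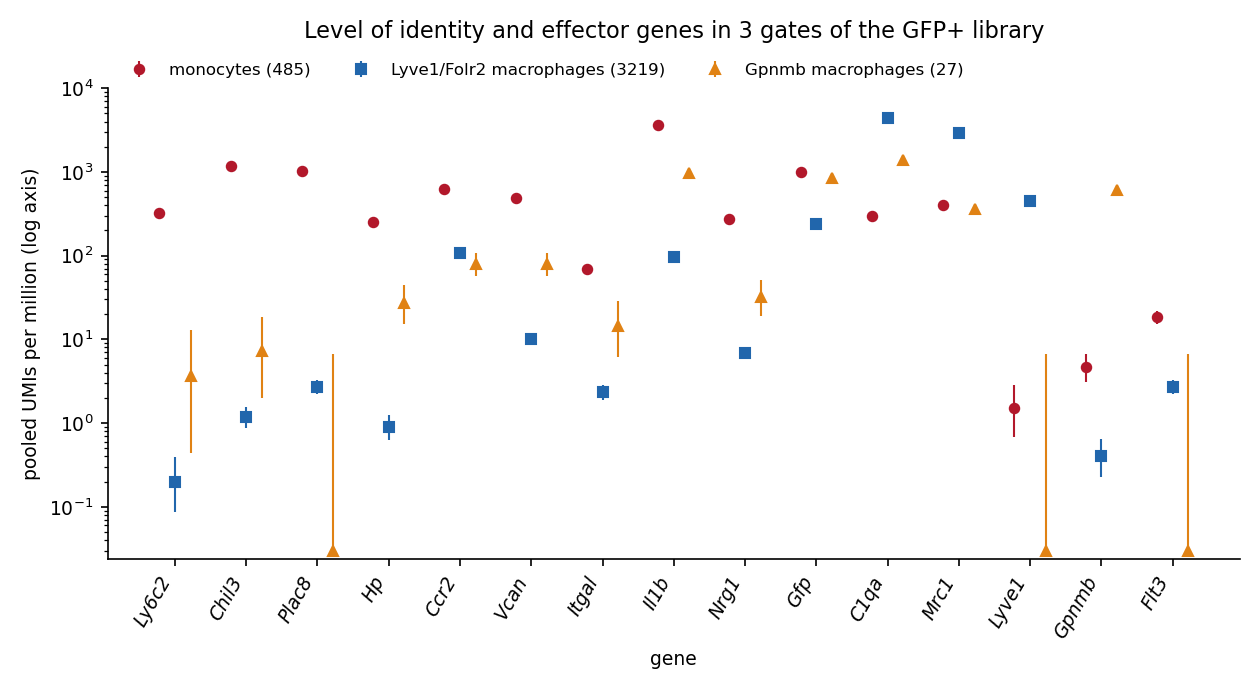
Pooled level of 15 genes in counts per 1000000 UMIs (log axis) in the monocyte gate (485 barcodes, red circles), the Lyve1/Folr2 gate (3219, blue squares) and the Gpnmb gate (27, orange triangles) of 1 library, with 95% Poisson intervals; triangles on the lower edge are counts of 0. Ly6c2, Chil3, Plac8, Lyve1 and Gpnmb set the gates, while Hp, Vcan, Il1b and Nrg1, which did not, were higher in monocytes than in both macrophage gates and C1qa was lower.

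Several genes for leaving the blood and moving through tissue, Ccr2 and Vcan among them, were higher in monocytes. Of the 3664 genes at 50 CPM or more in either gate, 422 (11.5%) were at least 2-fold higher in monocytes than in Lyve1/Folr2 macrophages and 547 (14.9%) at least 2-fold lower, with a median log2 ratio of 0.04. Of the 15 entry and adhesion genes among them, 9 were higher, 0 lower, and 6 between, and the median log2 ratio was 1.31. Ccr2, the receptor for Ccl2, stood at 628 CPM (608 to 648) in monocytes, 109 CPM in Lyve1/Folr2 and 79.5 CPM in Gpnmb macrophages, a log2 ratio of 2.53 (2.47 to 2.59) to the former and 2.98 (2.55 to 3.44) to the latter. After thinning to 5000 UMIs, 82.3% of monocytes held a Ccr2 UMI (90.3% unthinned), against 20.9% and 22.2% of the macrophages and 1.67% of 60 endothelial barcodes, a type that should lack it, at a median of 10278.5 UMIs. Vcan, for the matrix proteoglycan versican, was at 489 CPM (471 to 507) against 10.2 and 79.5 CPM, and the integrin gene Itgal at 69.2 against 2.35 and 14.4 CPM. Cd44, a receptor for hyaluronan, was also past 2-fold (log2 ratio 1.37), whereas Cx3cr1, the receptor of patrolling monocytes, had a log2 ratio of -0.57 and Itgb1 one of 0.01. Against Gpnmb macrophages, where 323 of 3532 tested genes (9.14%) were at least 2-fold higher, 292 (8.27%) lower and the median was 0.02, 6 of 16 entry genes were higher and 9 between, and Itgax, an integrin of dendritic cells and macrophages, was the 1 that was lower (16.7 against 77.7 CPM), though within 2-fold (log2 ratio -0.86) of the Gpnmb gate without the limit on monocyte genes.

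Some cytoskeletal genes were also higher. Against Lyve1/Folr2 macrophages, 7 of 20 actin and motility genes were at least 2-fold higher, 0 lower, with a median of 0.87. Coro1a, an actin regulator of leukocytes, was at 925 CPM (900.5 to 949) against 182 and 278 CPM, and 18.3% of its UMIs in deep barcodes lay in the members. Cd52 was at 1814 against 181 and 612 CPM, the thymosin gene Tmsb10 at 2163 against 244 and 1526 CPM, and the Src-family kinase gene Fgr at 85.7 against 3.45 and 36.1 CPM. The 13 members of the list within 2-fold included Actb, with a log2 ratio of 0.82.

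Monocytes carried high Il1b. The gene of the cytokine interleukin-1 beta stood at 3612 CPM (3564 to 3661), against 95.9 CPM in Lyve1/Folr2 and 961 CPM in Gpnmb macrophages, log2 ratios of 5.24 (5.19 to 5.29) and 1.91 (1.79 to 2.04). It was seen in 84.9% of thinned monocytes (88.9% unthinned), 12.2% of Lyve1/Folr2 macrophages and 3.33% of endothelial barcodes, and the members held 27.1% of all Il1b UMIs of deep barcodes. Ptgs2, for the prostaglandin enzyme cyclooxygenase, was at 746 CPM (724 to 768) against 44.4 and 246 CPM. Of 11 inflammatory mediators tested, 8 were at least 2-fold higher than in Lyve1/Folr2 macrophages, among them Il1rn, for the interleukin-1 receptor antagonist (168 against 37.2 CPM), and Il6 (83.7 against 26.5 CPM). Tnf was the 1 that was lower, at 216 against 594 CPM, a log2 ratio of -1.46 (-1.54 to -1.38). Against Gpnmb macrophages 2 of 11 were higher, Il1b and Ptgs2, and 1, Il1a, was lower (71.2 against 172 CPM), though Il1a was within 2-fold without Plac8 in the gate (-0.92) and after Scrublet (-0.87). In the Gpnmb gate without the limit on monocyte genes, Il1b stood at 1668 CPM and Ptgs2 at 501 CPM, which left Il1b past 2-fold (log2 ratio 1.11) and Ptgs2 within it (0.58). Against that gate 1 of 11 was higher and 3, Il1a, Il1rn and Tnf, were lower, with a median of -0.44 in place of -0.03. Of all 3382 genes tested against it, 7.84% were higher and 6.39% lower.

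Chemokine genes divided. Of 16 tested, 3 were at least 2-fold higher than in Lyve1/Folr2 macrophages and 7 lower, with a median of -0.84. Lower were Ccl8 (27.8 against 2152 CPM, log2 ratio -6.27 (-6.50 to -6.05)), the platelet factor gene Pf4 (171 against 3005 CPM), Ccl12 (96.8 against 884 CPM), Ccl24, Ccl3, Ccl7 and Cxcl16, with Ccl7 (-1.22) just within 2-fold with a floor of 10000 UMIs. Higher were Cxcl3 (76.7 against 9.99 CPM), Ccl5 and Ccl6 (1706 against 822 CPM), of which Ccl6 (log2 ratio 1.05) was within 2-fold in 4 alternatives, at 0.35 to 0.95. The neutrophil attractant gene Cxcl2 was the most abundant in both gates, at 8378 and 6566 CPM, within 2-fold, and Ccl2, the ligand of Ccr2, stood at 1775 and 3136 CPM. Of the Ccl5 UMIs of the monocytes, 51.4% lay in 5 members. Against Gpnmb macrophages 2 of 15 chemokine genes were higher, 1 lower and 12 between, with a median of 0.36. Without the limit on monocyte genes in that gate 1 of 16 was higher and 3 lower, with a median of -0.58.

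Receptors that sense microbes and dead cells included the C-type lectin gene Clec4e, at 758 CPM (736 to 781) against 34 and 316 CPM, and Clec4d, at 446 against 94 and 312 CPM. Of 14 pattern recognition genes tested against Lyve1/Folr2 macrophages, 6 were at least 2-fold higher (7 without the members that stood apart) and 2, the nucleic acid sensor Tlr7 and the lipopolysaccharide receptor Tlr4, were lower (42.3 against 158 CPM and 24 against 64 CPM). Cd14, the co-receptor of Tlr4, was at 2150.4 against 1042 CPM, a log2 ratio of 1.05. Sirpb1c had a log2 ratio of 6.41 (6.08 to 6.76), from 170.3 against 2 CPM, and its counts are uncertain where reads fit its close relatives in the Sirpb1 family. Against Gpnmb macrophages 7 of 12 were higher and 0 lower, with Clec4e within 2-fold when gated after thinning (0.98) or without the limit on monocyte genes in the Gpnmb gate (0.59). Without that limit 5 of 13 were higher and 0 lower, with a median of 0.64 in place of 1.08.

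Transcription factor genes set monocytes apart from Lyve1/Folr2 macrophages in both directions. Of 23 tested, 5 were at least 2-fold higher, 8 lower and 10 between, or 4 of 22 higher without the members that stood apart. Maf, a regulator of tissue macrophages, was at 176 CPM (166 to 187) against 1323 CPM, a log2 ratio of -2.91 (-3.00 to -2.82). Egr1, Jun and Fos, which also respond to tissue digestion, were lower, at 149 against 1355, 196 against 1164 and 688 against 1674 CPM, and Egr1 was at 57.8 CPM without the members that stood apart. Higher were Cebpb, a regulator of monocyte survival (2287 against 899 CPM), Nr4a2 (475 against 116 CPM), Hif1a, Bhlhe40 (181 against 12.8 CPM) and Runx2. Spi1, which encodes PU.1, was within 2-fold of both macrophage gates (349, 314 and 309 CPM), as was Irf8 (79.5, 105 and 83.1 CPM). Against Gpnmb macrophages 19 of 23 were within 2-fold, with Nr4a2 and the quiescence factor gene Klf2 higher (2.45 and 1.58) and Cebpa and Id2 lower. Klf2 was within 2-fold (0.97) of the Gpnmb gate without the limit on monocyte genes, and Id2 just within it without the Ly6d and Col3a1 subclusters.

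Most glycolytic genes were higher in monocytes than in Lyve1/Folr2 macrophages and within 2-fold of Gpnmb macrophages. Against the former 11 of 16 were at least 2-fold higher and 1, the regulatory enzyme gene Pfkfb3, was lower, with a median of 1.38. Gapdh was at 1075 against 370.4 and 1183 CPM, the pyruvate kinase gene Pkm at 528 against 168 and 464 CPM, and the lactate dehydrogenase gene Ldha at 314 against 117 and 341 CPM. Slc16a3, for a lactate exporter, was higher than in both gates, at 119 CPM (110.4 to 128) against 4.93 and 45.2 CPM. Against Gpnmb macrophages the median was 0.10, with 2 of 14 higher and 1 lower.

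Macrophage genes were low but present. No member of the 20 macrophage differentiation genes tested was at least 2-fold higher in monocytes than in Lyve1/Folr2 macrophages, and 15 were lower (14 without the members that stood apart), with a median of -2.17. Against Gpnmb macrophages 0 of 19 were higher and 15 lower, with a median of -1.79. Without the limit on monocyte genes in the Gpnmb gate 1 of 19 was higher and 14 lower, with a median of -1.56. The complement gene C1qa was at 299 CPM (286 to 313) against 4367 and 1387 CPM and was seen in 28.2% of thinned monocytes (39.8% unthinned), against all Lyve1/Folr2 macrophages, 66.7% of Gpnmb macrophages and, in endothelial barcodes, 6.67%. The lipid carrier gene Apoe was at 3659.6 against 22328 and 12532 CPM, the mannose receptor gene Mrc1 at 402 against 2908 and 361 CPM, and Csf1r, the growth factor receptor of macrophages, at 295 against 775 and 235 CPM. The cathepsin gene Ctsd was at 601 CPM against 635 CPM in Lyve1/Folr2 and 2554 CPM in Gpnmb macrophages.

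Most lipid-associated genes were lower than in Gpnmb macrophages, and several were higher than in Lyve1/Folr2 macrophages. Of 13 tested against Lyve1/Folr2 macrophages 7 were at least 2-fold higher and 3, Trem2, Cd36 and Abca1, lower, or 6 higher with a median of 0.99 in place of 1.32 without the members that stood apart. Against Gpnmb macrophages 15 of 16 were lower, these 3 among them, and 0 higher. The fatty acid binding protein gene Fabp5 was at 1297 CPM (1269 to 1326) against 84.4 and 8093 CPM, from 6744 CPM in a subcluster of 39 members and 574 CPM in all others. The galectin gene Lgals3 was at 3111 against 670.3 and 12847 CPM. Spp1, for osteopontin, was at 779 against 21.6 and 1624 CPM, but 63% of its monocyte UMIs lay in 5 members and 18.1% of thinned members held one. Without the 51 members that stood apart Spp1 was at 464 CPM, and its log2 ratio to Gpnmb macrophages, -1.06, was then -1.81. Those 51 included 1 barcode with 2095 Spp1 UMIs, counted with neutrophil genes on few UMIs. Over all alternatives the Spp1 ratio to Gpnmb macrophages ran from -2.94, when gated after thinning, to -0.47, without Plac8 in the gate.

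Interferon response genes were mostly higher in monocytes than in Gpnmb macrophages. Against Gpnmb macrophages 9 of 12 were at least 2-fold higher and 0 lower, with a median of 1.36, and 8 of 12 without the limit on monocyte genes, where 7.84% of all tested genes were higher and 6.39% lower. Against Lyve1/Folr2 macrophages 4 of 13 were higher (5 without the members that stood apart) and 2 lower. The antiviral membrane protein gene Ifitm3 was at 2038 CPM (2002 to 2075) against 1022 and 410.0 CPM, Ifitm6 at 141 against 23.7 CPM and no UMI, and the interferon regulatory factor gene Irf7 at 66.7 against 20.1 and 14.4 CPM. Irf7 stood at 852 CPM in a subcluster of 22 members and at 29.3 CPM in all others. Of the MHC class II genes, which present antigen, 4 of 6 were within 2-fold of both gates, including H2-Aa (1979.6, 1638 and 1639.9 CPM) and Cd74, and the peptide loading genes H2-DMa and H2-DMb1 were higher than in both (399 against 143 and 148 CPM, and 327 against 97.9 and 128 CPM). With barcodes holding UMIs of other lineages removed, both were within 2-fold of Lyve1/Folr2 macrophages (0.83 and 0.89), and with at least 10 UMIs over all 3 gate genes H2-DMb1 was within 2-fold of Gpnmb macrophages (0.96).

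**Figure D2:**
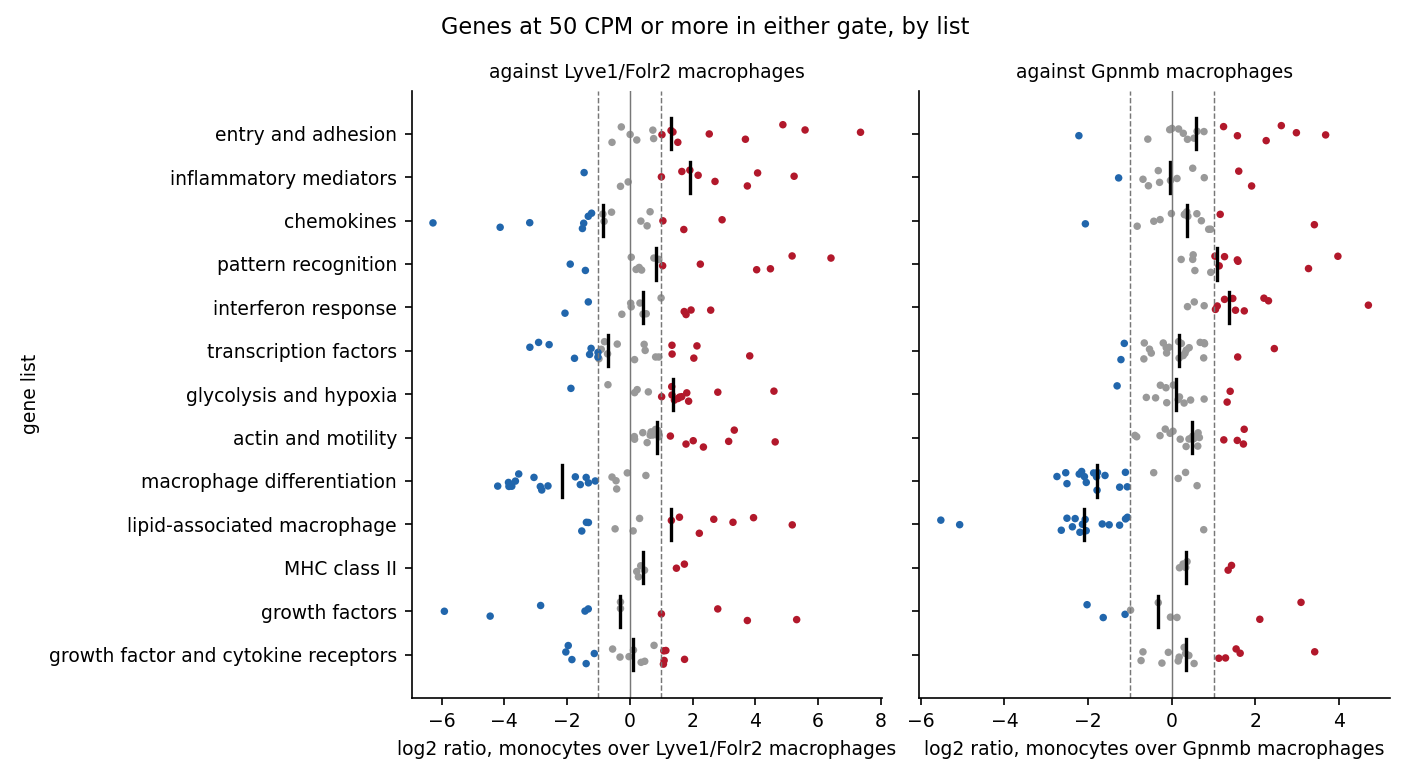
Log2 ratio of pooled level, monocytes over Lyve1/Folr2 (left) and Gpnmb (right) macrophages, for each gene at 50 CPM or more in either gate (points; red at least 2-fold higher, blue at least 2-fold lower, grey between) by gene list, with the list's median as a black bar and 2-fold as dashed lines. Most macrophage differentiation genes lie left of 0 in both panels (medians -2.17 and -1.79), and most lipid-associated genes lie to the right against Lyve1/Folr2 macrophages (1.32) and to the left against Gpnmb macrophages (-2.10).

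The growth factor gene with the highest ratio was Nrg1. It encodes neuregulin-1, a ligand of the ErbB receptors through which axons direct Schwann cells, and lies on chromosome 8 (31807452 to 32891609). Nrg1 was at 277 CPM (264 to 291) in monocytes, 6.96 CPM (6.17 to 7.83) in Lyve1/Folr2 and 32.5 CPM (19.3 to 51.4) in Gpnmb macrophages, with no UMI in endothelial barcodes, a log2 ratio of 5.32 (5.13 to 5.50) to the former gate and 3.09 (2.43 to 3.85) to the latter. After thinning 35.1% of monocytes held an Nrg1 UMI (42.9% unthinned), against 1.3% and 3.7% of the macrophages. The members, 5.26% of deep UMIs, held 36.1% of all Nrg1 UMIs in deep barcodes. A 3 prime count does not tell which neuregulin isoform was made. Of 11 growth factor genes tested against Lyve1/Folr2 macrophages, 4 were at least 2-fold higher (Nrg1, Vegfa, Areg and Osm) and 5 lower. Osm was at the limit (log2 ratio 1.01) and within 2-fold in 5 alternatives, at 0.16 to 0.95. The angiogenic factor gene Vegfa was at 70.8 against 5.28 and 88.5 CPM, and the ErbB ligand gene Areg at 124 against 17.8 and 28.9 CPM, with 50.9% of its monocyte UMIs in 5 members and a log2 ratio of 0.50 to the Gpnmb gate without the limit on monocyte genes. Lower were Igf1, for a growth factor of muscle and nerve (31.3 against 225 CPM, and 15.1 CPM without the members that stood apart), Bmp2, Pdgfc, Grn and Hbegf.

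Cytokine receptor genes divided against Lyve1/Folr2 macrophages. Against Lyve1/Folr2 macrophages 5 of 17 (of 18 without the members that stood apart) were at least 2-fold higher, among them the receptor genes for GM-CSF, Csf2ra (179.6 against 81 CPM) and Csf2rb (125 against 37.2 CPM), and for interferon gamma, Ifngr1 (337 against 160.5 CPM). Csf2ra was within 2-fold with barcodes holding UMIs of other lineages removed (0.83), and Ifngr1 with a floor of 10000 UMIs (0.97). As many, 5, were lower, including Csf1r, Tgfbr2 (72.2 against 297 CPM) and the semaphorin receptor gene Nrp1 (81.5 against 318 CPM). Against Gpnmb macrophages 5 of 15 were higher, 0 lower and 10 between, with a median of 0.33. Without the limit on monocyte genes in that gate 5 of 15 were higher and 1 lower.

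Coagulation and secreted genes held several of the highest ratios. F10, for coagulation factor X, was at 273 CPM (260.1 to 287) against 2.13 and 238 CPM, and Thbs1, for thrombospondin-1, at 284 against 15.3 and 269 CPM, both within 2-fold of Gpnmb macrophages. Fn1, for fibronectin, was at 905 against 59.8 and 986 CPM. F13a1, for the clot cross-linking factor, was at 371 against 1976 and 75.9 CPM. Its log2 ratio to Gpnmb macrophages, 2.29, was 0.61 when gated after thinning and 0.50 without the limit on monocyte genes. Of 13 granule and secreted genes tested against Lyve1/Folr2 macrophages, 7 were at least 2-fold higher and 2 lower, or 8 of 14 higher without the members that stood apart. Hp led them, at 249 CPM (237 to 262) against 0.901 and 27.1 CPM, seen in 46.8% of thinned monocytes, 0.373% of Lyve1/Folr2 macrophages and 0% of endothelial barcodes.

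By ratio alone, the genes outside the gate that stood highest against Lyve1/Folr2 macrophages included Gm9733 (54.2 against 0.125 CPM), Retnlg, Hp, Mcemp1 (75 against 0.325 CPM), F10, Serpinb2, Trem1, Sirpb1c and Dmkn, and Retnlg rested on the barcodes with neutrophil genes. The lowest were Chp2, Plxna4, Cd209f, Rasgrp3, Fxyd2 (2.17 against 229.6 CPM), Ccl8, Ltc4s, Bmp2, Gpr34 and Plekhg5. Ltc4s, for leukotriene C4 synthase, was at 3.67 against 278 CPM. Against Gpnmb macrophages the highest included Gpr141 (186 against 3.61 CPM), Rnase6, Ifitm6, Klra2 and Ms4a4c (337 against 16.3 CPM), while S100a8, S100a9, Retnlg and Col3a1, also among them, rested on the barcodes that stood apart: without those, S100a9 was at 0.588 CPM in place of 520.2 and Col3a1 at 9.8 CPM in place of 451. The lowest included Fabp7, the elastase gene Mmp12 (17.3 against 796 CPM), the osteoclast proton pump gene Atp6v0d2 (9.66 against 325 CPM), Fabp4 and Il7r (34.7 against 356 CPM). Mmp12 was within 2-fold when gated after thinning (log2 ratio -0.61).

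The reporter transcript was abundant in these cells. Gfp was at 989 CPM (964 to 1015) in monocytes, 239.7 CPM (235 to 245) in Lyve1/Folr2 macrophages, 836 CPM (762 to 916) in Gpnmb macrophages and 50.6 CPM (35.6 to 69.7) in endothelial barcodes. The log2 ratio of monocytes was 2.05 (2.00 to 2.09) to Lyve1/Folr2 macrophages and 0.24 (0.11 to 0.38) to Gpnmb macrophages, the latter under 2-fold. After thinning, 85.4% of monocytes held a Gfp UMI (91.5% unthinned), against 54.5%, 81.5% and, in endothelial barcodes, 3.33%. S100b, whose promoter drives the transgene, had 4 UMIs in all members together (0.667 CPM), and the Schwann cell gene Sox10 had 1. All barcodes of this library had passed a sort for GFP, so the levels describe sorted cells, and why the transcript was present was not tested. Among the other S100 genes S100a4 was at 3130.2 CPM (3086 to 3175) against 458 and 1568 CPM, S100a6 at 3603 against 722 and 1970.4 CPM and S100a11 at 1020.5 against 165 and 551 CPM. Of the S100 family 5 of 8 tested were at least 2-fold higher than in Lyve1/Folr2 macrophages, or 3 of 6 without the members that stood apart, where 11.3% of all tested genes were higher and 15.9% lower.

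**Figure D3:**
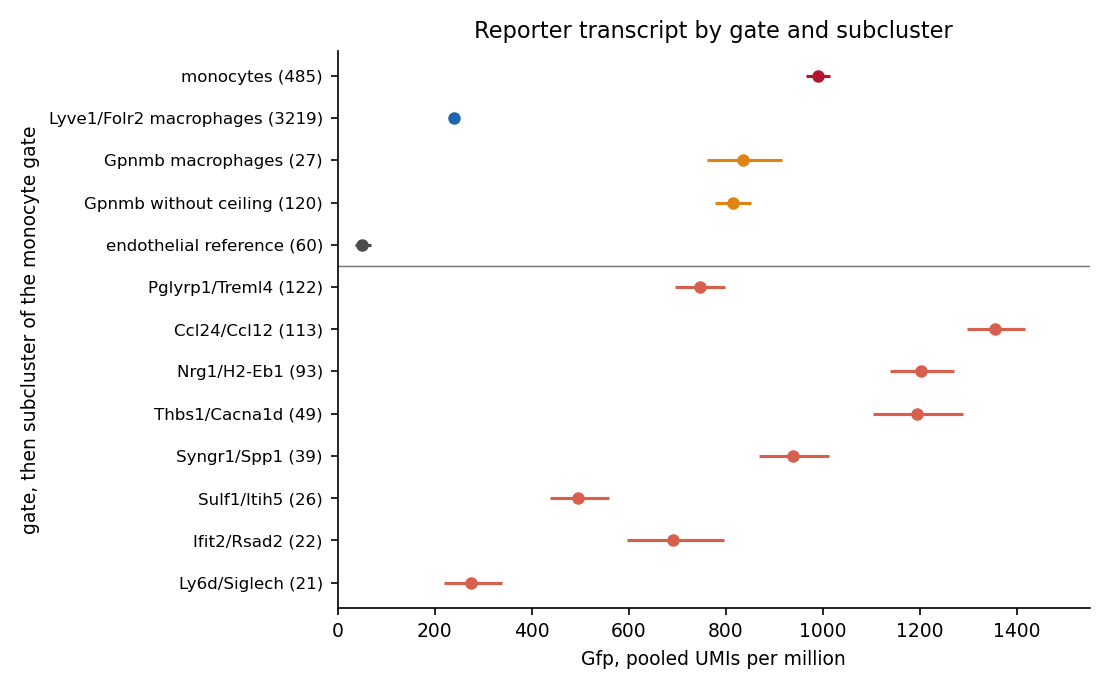
Gfp level in pooled counts per 1000000 UMIs (horizontal axis, from 0) in 5 gates and, below the line, in the 8 subclusters of the monocyte gate, named by leading genes with the number of barcodes in brackets; bars are 95% Poisson intervals. Within the monocyte gate the level runs from 274 CPM in the Ly6d/Siglech subcluster to 1355 CPM in the Ccl24/Ccl12 subcluster, the former close to the 239.7 CPM of Lyve1/Folr2 macrophages.

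Clustering of the 485 members on genes other than the gate genes and Gfp gave 8 subclusters, which are described by leading genes and were not tested, since those genes formed them. The largest, 122 barcodes (25.2%, 21.4 to 29.3%), was led by Pglyrp1, Treml4, Ear2, Itgal and Mmp8, and 4 of its 10 leading genes were on the list of 11 markers of patrolling monocytes, which crawl inside vessels. Others of that list were not: Fabp4 was at 53.1 CPM against 743 CPM and Cd36 at 240.4 against 685 CPM in the Syngr1/Spp1 subcluster, where the list summed to 1849 CPM against 1584 CPM. Hp, which the gate did not use, was at 525 CPM and Ccr2 at 741 CPM. C1qa was at 51.3 CPM and Mrc1 at 46.8 CPM, both below the level over all members. Of the 4 barcodes with neutrophil genes 3 lay here, and S100a8 stood at 1682 CPM against at most 29.9 CPM elsewhere.

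The second, 113 barcodes led by Ccl24, Ccl12, Psd3, Flrt3 and Cxcl3, held 5 chemokine genes among its 10 leading genes. Its chemokine list summed to 29953 CPM against 5047 CPM in the Pglyrp1/Treml4 subcluster, with Cxcl2 at 14651 against 2375 CPM and Ccl4 at 3617 against 252 CPM. C1qa (553 CPM) and Mrc1 (772 CPM) were above the level over all members, and Plac8 (255 CPM) below it. Gfp was at 1355 CPM.

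The third, 93 barcodes, was led by Nrg1 with the MHC class II genes H2-Eb1, H2-Aa and H2-Ab1 and the lectin gene Clec4b1. Nrg1 stood at 685 CPM, was seen in 51.6% of thinned barcodes, and ranged from 0 UMIs in the Ly6d/Siglech subcluster to 373 CPM in the other 7. H2-Aa was at 4022 CPM here, 784 CPM in the Pglyrp1/Treml4 and 932 CPM in the Thbs1/Cacna1d subcluster. Over single members an H2-Aa UMI was seen in 61.8% of the 170 members with Nrg1 and in 61.3% of the 315 without. Ccr2, at 963 CPM, and the dendritic cell lectin gene Cd209a, at 139.9 CPM, were above their levels over all members.

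The fourth, 49 barcodes led by Thbs1, Cacna1d, Trem1, Serpinb2 and Bst1, held Il1b at 6680.1 CPM, Ptgs2 at 1436 CPM, Clec4e at 1241 CPM and Vcan at 1048 CPM, each above its level in the other 7 subclusters. The fifth, 39 barcodes led by Syngr1, Spp1, Fabp4, Hal and F7, held the lipid-associated genes Spp1 and Fabp5 among its 10 leading genes. Spp1 was at 5405 CPM against 9.46 to 459 CPM in the other 7, but 2095 of its 3802 UMIs here lay in 1 barcode, without which it was at 2548 CPM. That barcode was counted with neutrophil genes on few UMIs, as this subcluster held 21 S100a8 UMIs, S100a9 at 1.42 CPM and no Retnlg UMI. Fabp5 was at 6744 CPM and Trem2 at 611 CPM, while Ccr2 was at 151 CPM, Ly6c2 at 104 CPM and Chil3 at 834 CPM.

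The remaining 3 were small. The 26 barcodes with mesenchymal genes were led by Sulf1, Itih5, Gpc6, Svep1 and C1s1, with Col3a1 at 5024 CPM and Chil3 at 586 CPM. The 22 barcodes led by Ifit2, Rsad2, Ifit1bl1, Ifit3 and Isg20 summed to 15152 CPM over the interferon list against 2280.1 to 6497 CPM in the others, with Isg15 at 1705 CPM, seen in all of them after thinning, and Irf7 at 852 CPM. Ly6c2 was at 702 CPM there. The 21 barcodes led by Ly6d, Siglech, Kit, Ptprcap and Ctsw held Ly6c2 at 933 CPM and Plac8 at 1702 CPM, which placed them in the gate, with the dendritic cell transcription factor genes Irf8 at 419 and Tcf4 at 1094 CPM, Flt3 at 129 CPM and Il1b at 476 CPM. They also held the killer cell lectin gene Klrd1 at 533 CPM, Gzma at 186 CPM and Nkg7 at 117 CPM, with the list of T, NK, B and mast cell genes at 435 CPM in sum against at most 21.6 CPM in the others. The dendritic cell list summed to 1245 CPM against 252 to 727 CPM, and its members Ccr7, Fscn1, Ccl17 and Ccl22 had no UMI. The 20 mitotic phase genes summed to 1006 CPM in them against 28.8 to 319.6 CPM in the others, and Top2a stood at 284 CPM. They were given no cell type name.

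**Figure D4:**
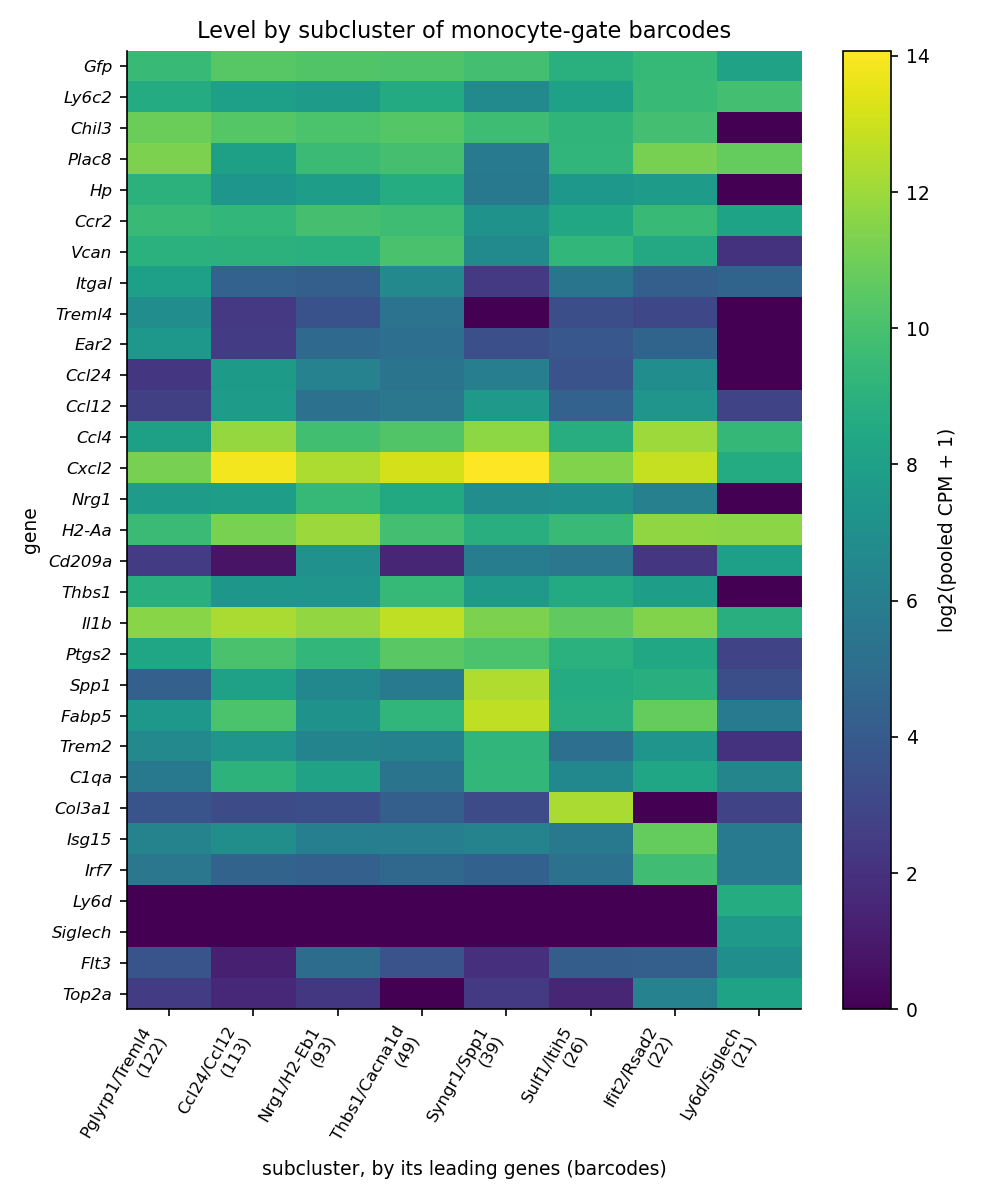
Level of 31 genes, as log2(pooled CPM + 1), in the 8 subclusters of the monocyte gate, named by leading genes with the number of barcodes in brackets. Chil3 and Hp read 0 in the Ly6d/Siglech column, Spp1 and Fabp5 are brightest in the Syngr1/Spp1 column, Col3a1 in the Sulf1/Itih5 column and Isg15 in the Ifit2/Rsad2 column.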

How the data were processed

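Live GFP+ cells of muscle after sciatic nerve crush were captured in droplets and sequenced as 1 library. The deposited values are UMI counts per gene and barcode that the authors made with Cell Ranger (8.0.1 in the file header, 7.1.0 in the submitters' processing notes, which also list Seurat 4.30). The notes name mm10, whereas the study's methods name GRCm39 and GRCm38, so no coordinate was taken from the counts. The matrix held 36400 barcodes, 170648616 UMIs and 32287 features, with all sample columns used. Gfp is the transgene feature; a second green fluorescent protein feature had 2 UMIs. A total of 40 symbols occurred more than once and were not named.

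Gates were set on UMIs per barcode. The macrophage gates needed at least 5 UMIs of their own genes, and the endothelial gate at least 5 UMIs over at least 2 of Pecam1, Cdh5 and Kdr with at most 2 of Tyrobp and Fcer1g. Doublets and free RNA were not removed before gating. UMIs of a gate were summed and divided by its total to give counts per 1000000 UMIs (CPM), with exact Poisson intervals. Ratios carry exact conditional intervals. Such intervals cover counting error only, and a count of 0 allows up to 3 counts. Genes with at least 50 CPM in either gate were compared, and a 2-fold difference was the limit for calling one higher or lower. Shares of barcodes with a UMI were taken after thinning to 5000 UMIs unless given as unthinned or before thinning. Subclusters came from Leiden clustering (scanpy 1.11.5) on 1000 variable genes, 15 components and 15 neighbours at resolution 0.5. Python 3.11.15, numpy 2.4.6 and scipy 1.17.1 were used, and ratios, intervals and gates were tested on simulated data. Sequences and gene positions came from RefSeq (GRCm38.p6), and transcripts from GENCODE on GRCm39.

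Named genes were the gate genes, Gfp, genes of fixed lists with the highest levels or differences, those among the 10 highest and 10 lowest ratios, and the 5 leading genes of each subcluster. Some genes that met this rule are not reported here. The members and lists were chosen with earlier results of these data known. Genes named outside that rule, among them Cd209a, Ccr2 and Mrc1 in the subclusters, were chosen after their values were seen. Alternatives covered depth, mitochondrial share, gate genes, thinning, doublets, the level filter and clustering.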

Additional observations from a re-analysis of the deposited data

How the results depend on the processing

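The size of the gate followed its limits. Against 5.55% of deep barcodes, the monocyte share was 4.32% with a floor of 3000 UMIs, 6.39% with mitochondrial genes under 5%, 2.20% with at least 10 UMIs over all 3 genes, 2.86% without Plac8, 3.91% when gated after thinning, and 1.03% when barcodes with at least 3 UMIs of mesenchymal, endothelial, Schwann or muscle genes were removed. That last step took out 395 of the 485 members and left 1 Gpnmb barcode, so no Gpnmb comparison was made under it. Scrublet's own threshold called 0.0229% of deep barcodes and had not worked, so its highest 10% were removed in its place, 28 members among them.

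The Gfp ratio to Lyve1/Folr2 macrophages, 2.05, was 1.83 with at least 10 UMIs over all 3 genes, 1.95 without Plac8, 1.96 when gated after thinning, 2.15 after Scrublet and 2.22 without other-lineage barcodes. The Gfp ratio to Gpnmb macrophages, 0.24, was 0.029 with at least 10 UMIs over all 3 genes. A filter of 10 CPM in place of 50 CPM gave 819 genes higher and 1446 lower than in Lyve1/Folr2 macrophages (422 and 547 before), and 916 higher and 857 lower than in Gpnmb macrophages (323 and 292 before). The gate held 3 subclusters at resolution 0.25 and 12 at resolution 1. A Ly6c2 UMI was seen in 54.2% of members thinned to 5000 UMIs, 31.3% thinned to 2000 and 71.8% unthinned.

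Leaving out sets of members, and the Gpnmb gate without the limit on monocyte genes, were chosen after seeing the data. Without the Ly6d and Col3a1 subclusters the share was 5.01% and the Gfp ratio to Lyve1/Folr2 macrophages 2.18. Without the barcodes holding neutrophil genes as well these were 4.96% and 2.18. Col3a1 turned lower than in Lyve1/Folr2 (-3.80, then -3.82) and in Gpnmb macrophages (-1.35, then -1.37). S100a8 turned lower than in Lyve1/Folr2 macrophages without the neutrophil-gene barcodes (-0.93) and without both sets (-0.75), and than in Gpnmb macrophages in the same order (-1.76 and -1.58). S100a9 turned lower than in Lyve1/Folr2 macrophages likewise (-5.04 and -4.82).

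Among the alternatives planned at the start, S100a8 turned lower with a floor of 10000 UMIs (-1.03 to Lyve1/Folr2 and -1.56 to Gpnmb macrophages) and with at least 10 UMIs over all 3 genes (-0.98 and -1.80). S100a9 turned lower than in Lyve1/Folr2 macrophages under both (-4.99 and -4.25). Ccl12 turned lower than in Gpnmb macrophages when gated after thinning (-1.43). The cause was not tested.

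Of the ratios of genes in the text that were past 2-fold, 7 of 60 fell within 2-fold with the Gpnmb gate without the limit on monocyte genes. With barcodes holding other-lineage UMIs removed, 5 of 100 did. Under each other alternative between 0 and 5 of 161 to 163 did, and up to 5 ratios turned to the other direction. No paired analysis was possible because each group is 1 library. The 27 Gpnmb barcodes limit that comparison, and counting error leaves out differences between animals.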
